A study of Arabidopsis thaliana with 18 samples.

Results

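The transcripts described here are the most abundant ones of control plants of Arabidopsis thaliana accession Est, read on Affymetrix ATH1 arrays, on which each transcript is read by a set of short probes. The 200 probe sets with the highest mean level over the 9 control arrays were taken, and 14 of them were left out: 12 of genes in the chloroplast or mitochondrial genome and 2 more that the selection rule named. The remaining 186 of 22746 probe sets are called the members below. All 18 arrays came from accession Est. The 9 control arrays came from plants given 0.02% silwet, a wetting agent, and the other 9 from plants given 0.3 mM SA in 0.02% silwet, so both groups received the wetting agent. SA is the usual short form of salicylic acid, a hormone of plant defence. The labels used here name neither the tissue nor the age of the plants or the hour of harvest. The titles number each treatment's arrays with replicates 1, 2 and 3, each number used 3 times, and carry a running number from 37 to 54. In that order each treatment passes through the replicate numbers 3 times, which divides the arrays into title runs of 3, namely 37 to 39, 40 to 42 and 43 to 45 with silwet, then 46 to 48, 49 to 51 and 52 to 54 with SA. Each title also carries a second number, in some titles with a letter, whose meaning the labels do not give. Nothing in the labels says what a run is, or that the arrays of a group were made from different plants. A p-value here therefore weighs a difference against the variation among these samples, part of which may be technical.

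Leaf cells spend much of their messenger RNA on photosynthesis: nuclear genes supply antenna proteins, small photosystem subunits and the enzymes of carbon fixation, which are imported into the chloroplast. A further large share goes to ribosomal proteins, which the ribosome needs in balance. Lipid transfer proteins serve the cuticle of the epidermis, and many stress and defence genes change their transcript level with light, temperature and hormones such as SA.

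Levels are given as log2(signal + 16), on which a difference of 1 is close to a 2-fold change at these intensities. The members were chosen by their mean level on the 9 silwet arrays alone, so that level is given as a description. Member means on silwet arrays ran from 10.71 to 12.09. The last member, 261149_s_at, had a mean of 10.712, the probe set ranked 200, an excluded chloroplast gene, 10.7099, and the first outside, 261362_s_at, 10.7098, so the edge of the list falls between values that differ by less than any member's spread. A signal depends on the probes of a probe set as well as on the transcript, so ranks describe the array and not copies per cell. All 186 members passed the filter on dim probe sets, which left 17059 probe sets for testing. Of the members, 48 carry 1 gene in the annotation, 6 carry several and are not named, and 132 are not named here and are given by probe set ID. The 48 named genes are short: their median annotated length was 1536 bases (interquartile range 1225 to 2131.5), against 2290 bases (1649 to 3218, n = 9384) for all tested probe sets with 1 gene.

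Photosystem and ribosomal proteins were the largest groups among the 48 members with 1 gene. The 132 unnamed members and the 6 with several genes were placed in no group. A group may therefore be larger than listed here, and a gene missing from it may be among the unnamed members. Photosystems and electron transport hold 9 genes: PSAE-1 and PSAN, both subunits of photosystem I, PSBY, PSBW and AT1G51400, small proteins of photosystem II, ATPC1, the gamma subunit of the chloroplast ATP synthase, AT2G26500, a small subunit of the cytochrome b6f complex, AT4G01150 (CURT1A), which bends the thylakoid membrane at the edge of grana, and PIFI, a protein of chlororespiration. Light harvesting holds LHCB4.1, a minor antenna protein of photosystem II, and carbon fixation holds RCA, the activase that frees Rubisco of bound sugar phosphates, and SBPASE, an enzyme of the Calvin cycle. Chlorophyll synthesis holds PORB, which reduces protochlorophyllide in light, and AT1G74470, the geranylgeranyl reductase that makes the phytol tail. Ribosomal proteins hold 9 genes: AT5G20290, AT5G27700 and AT5G15200 of the small subunit, AT3G49910, AT3G60245, AT2G34480 and AT1G52300 of the large subunit, AT3G09200 of the acidic stalk, and AT2G43030 of the plastid ribosome. The other groups are smaller: defence and stress 5, cytosolic carbon metabolism 2 (TPI and GAPC2, enzymes of glycolysis), cell wall 2, lipid transfer family proteins 2, redox 2, and 1 each of translation factors (AT5G19510, elongation factor 1B), protein turnover, glucosinolate synthesis and polyamine synthesis (SAMDC), with 8 genes in no group.

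Leaf markers and markers of other organs were set beside this picture, as far as they are named on the array. RCA, the 1 of 9 leaf markers named here, stood at 11.56 ± 0.23 (SD, n = 9) on silwet arrays, with signals from 1784 to 3646 over all 18 arrays. RCA is itself a member, so its high silwet level follows from the choice of members and is given as a description. The 2 of 8 root markers named here, the root hair expansins EXPA7 and EXPA18, stood at 4.52 ± 0.23 and 4.68 ± 0.17 (SD, n = 9), and the 1 of 3 pollen markers, AT1G29140, at 4.31 ± 0.11. A signal of 0 would give 4, so the root and pollen markers were at the bottom of the scale. No marker of the flower and seed lists was named here, so those organs were not read. In bulk RNA, fewer cells of a type and less RNA per cell cannot be told apart.

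The members carried 13.3% to 16.3% of an array's summed signal. On the silwet arrays the share was 13.77, 13.80 and 13.70% in titles 37 to 39, 14.24, 15.64 and 16.13% in 40 to 42, and 15.01, 15.11 and 16.30% in 43 to 45. On the SA arrays it was 13.49, 13.29 and 13.53% in titles 46 to 48, 14.49, 15.06 and 15.30% in 49 to 51, and 13.79, 16.14 and 15.68% in 52 to 54. In both treatments the first run was low on each of its 3 arrays and did not overlap the later 2, while silwet and SA overlapped over most of their range. The median level of the members was likewise lowest in the first runs and ran from 11.01 to 11.34 as deposited. After quantile normalization, which gives every array the same distribution of signals, it ran from 11.08 to 11.18, and the first silwet run was no longer apart while the first SA run, at 11.08 to 11.12, was still the lowest.

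**Figure D1:**
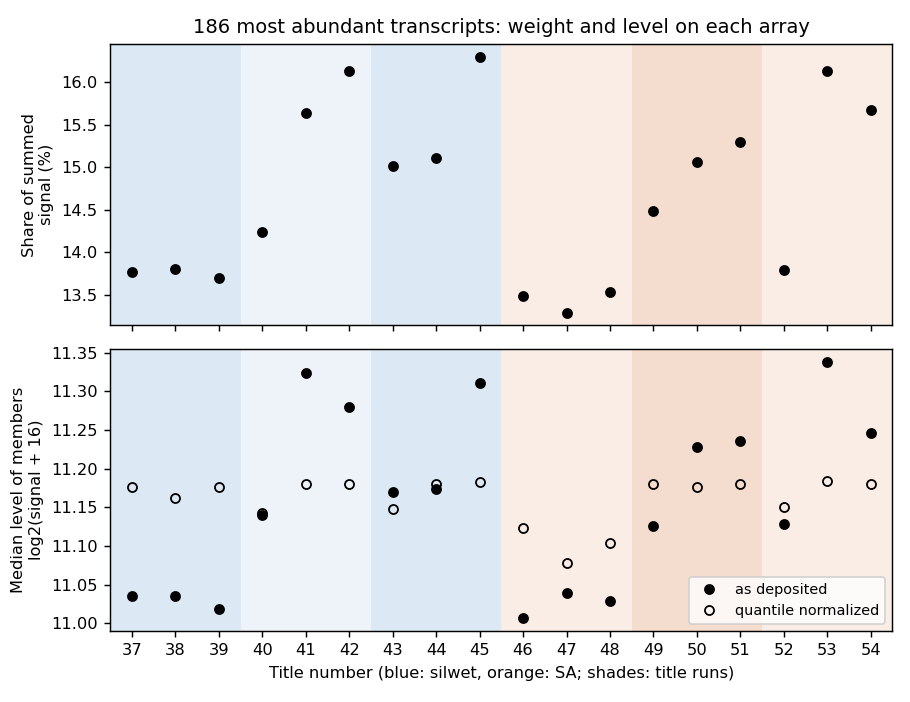
Share of the summed signal carried by the 186 members (upper panel, %) and their median level (lower panel, log2(signal + 16), filled as deposited, open after quantile normalization) on each of the 18 arrays, ordered by title number, with silwet in blue and SA in orange. Titles 37 to 39 and 46 to 48 were the lowest runs as deposited, and quantile normalization brought all arrays to between 11.08 and 11.18.

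Most members were abundant in every part of the series. Ranked on the 9 SA arrays, 175 of the 186 were again among the highest 200 and 185 among the highest 300. The exception was 252971_at, at place 325, and the named genes that dropped out of the highest 200 were LCR69, AT1G74470, AT3G62550 and AT1G51400. Ranked on 1 silwet run alone, 173, 171 and 178 of the members were kept, and on 1 SA run alone 149, 167 and 172, the lowest number in titles 46 to 48. On single arrays, the number of members among the array's own highest 200 ran from 135 in title 47 to 172.

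Over the 9 arrays of a treatment, the median member had an SD of 0.187 on silwet and 0.200 on SA, against 0.246 and 0.293 over all probe sets tested. The next 195 probe sets by rank, with the same exclusions, had medians of 0.218 and 0.241. On silwet arrays 155 of the 186 members had an SD below the median of all probe sets tested. This order holds for the offset of 16 and turned with a larger one: with an offset of 64 the members' medians were 0.184 and 0.195 and those of all probe sets 0.151 and 0.178.

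By median SD the steadiest function was cytosolic carbon metabolism, which holds only 2 genes. TPI, the cytosolic triosephosphate isomerase, had the smallest spread of all 186 members, with an SD of 0.0976 around the treatment means (median of the members 0.196). Its lowest, median and highest levels were 10.97, 11.20 and 11.36 on silwet and 11.02, 11.16 and 11.26 on SA, and the range of SA arrays lay inside that of silwet arrays. GAPC2, the cytosolic glyceraldehyde-3-phosphate dehydrogenase, varied more, with an SD of 0.172 on silwet arrays against 0.105 for TPI. GAPC2 had lowest, median and highest levels of 11.04, 11.26 and 11.48 on silwet and 11.05, 11.23 and 11.37 on SA. Ribosomal and photosystem proteins came next by spread around the treatment means. Their median SDs were 0.171 and 0.185 on silwet arrays and 0.168 and 0.175 on SA arrays. PIFI (0.129), AT5G15200 (0.142) and AT2G34480 (0.150) were among the steadiest genes around the treatment means, as were the unnamed 265560_at (0.116) and 264545_at (0.117). By spread around the treatment means, chlorophyll synthesis and defence and stress stood at the other end. On SA their median SDs were 0.473 and 0.391, and on silwet 0.219 and 0.260, where chlorophyll synthesis lay below carbon fixation (0.228). The widest spread of all, 0.870, belonged to 252971_at, which read 7.47 on the SA array titled 52 and 9.87 or more on the other 17. Without title 52 its SA level was 10.77 ± 0.49 (SD, n = 8), against 10.82 ± 0.31 (SD, n = 9) on silwet.

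**Figure D2:**
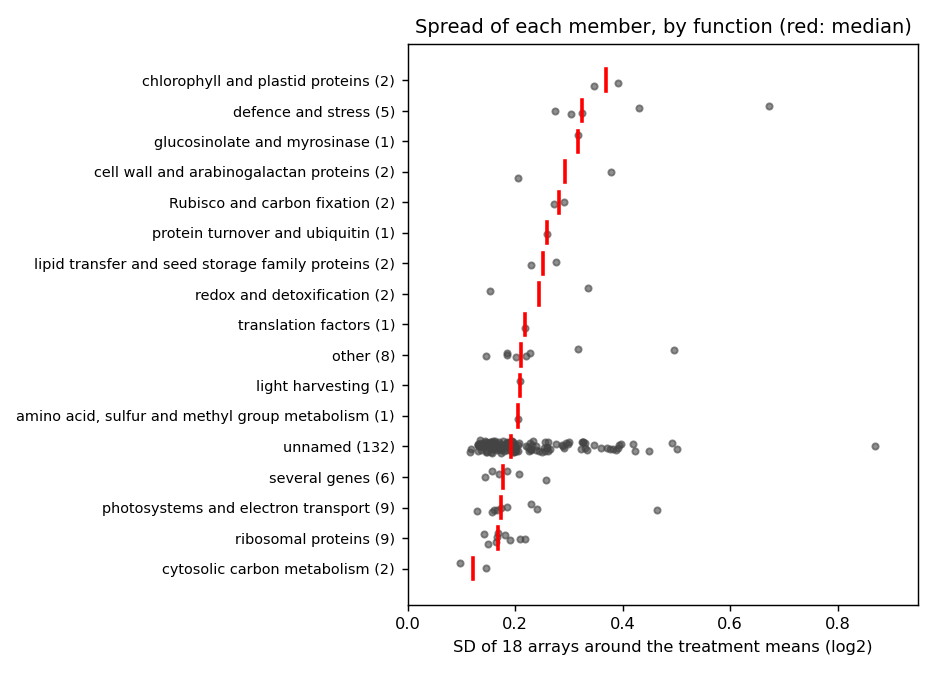
SD of each member's 18 values around the 2 treatment means (log2), 1 point a member, by function with the number of members in brackets and the median in red. Cytosolic carbon metabolism, ribosomal and photosystem proteins lie lowest by median, and chlorophyll synthesis and defence and stress highest.

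The first comparison asked whether the abundant transcripts differed between SA and silwet. No member passed: 0 of 186 were called by limma with Benjamini-Hochberg adjustment over 17059 probe sets (0% of all tested were called), 0 had an unadjusted p under 0.05, and the smallest adjusted p was 0.9998. The silwet side of this contrast is not independent of the choice, since members were picked for a high silwet level. The difference was above 0 for 55 members and below 0 for 131, with a median of -0.03 against -0.02 for all tested, and with limma's array weights it was above 0 for 118 with a median of 0.02. Differences ran from -0.42 (252971_at) to 0.14 (AT5G20290). The 95% interval of the difference lay within 0.5 of 0 for 175 members and within 1 for 185, with half-widths from 0.129 to 0.759 and a median of 0.195 in the fit without the replicate block. These intervals take the arrays as independent, though arrays of a title run correlated at 0.267, so they may be too narrow. With the run as a random block 25 of all probe sets had an unadjusted p under 0.05 in limma, against 234 without. The SA mean also averages runs that differed for some members. With arrays averaged to 1 value for each treatment and replicate number and the number as a block, 34 members and 2146 of all 17059 probe sets had an unadjusted p under 0.05, and 0 members and 32 of all probe sets passed in limma.

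Ribosomal protein genes read slightly above silwet on the SA arrays, though none passed. The difference was above 0 for 8 of 9, with a median of 0.07, and for 6 of 9 without replicate 2. AT5G20290, a small subunit protein, had 10.87, 11.31 and 11.46 as the lowest, median and highest level on silwet and 11.18, 11.41 and 11.60 on SA, a difference of 0.14 ± 0.08 (SE, n = 9 and 9, adjusted p = 0.9998 in limma). The ranges overlapped. Photosystem genes read below silwet in 7 of 9, with a median of -0.07, and none passed. Of all 186 members, picked for a high silwet level, 131 read below silwet and 55 above, so the photosystem genes were near that share. Of all 17059 probe sets tested 9802 read below. With array weights 6 of the 9 photosystem genes read below, with a median of -0.01. PSAE-1, of photosystem I, had 11.53, 11.68 and 12.06 on silwet and 11.58, 11.65 and 12.03 on SA, so the treatments covered almost the same range. LHCB4.1, the antenna protein, had 11.59, 11.77 and 12.05 on silwet and 11.31, 11.70 and 12.06 on SA, where the lowest value was again that of title 52. The 5 defence and stress genes all read below silwet, with a median of -0.14 and none passed, and with the first run of each treatment left out 3 read above and 2 below (median 0.05).

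The second comparison asked how steady the members were between title runs of the same treatment. Within SA the runs differed for 40 members, 21.5% of them, in limma's F-test with adjusted p under 0.05, against 24.5% of all probe sets tested, so the share among members was near the background in this setting. With the replicate number as a block 71 members passed, 38.2% of them, against 31.3% of all tested. The share moved with the arrays used: it was 37.6% against 26.0% without title 52, 46.8% against 28.0% without titles 40, 43 and 52, 33.3% against 23.9% without replicate 1, and 3.23% against 8.31% without replicate 2. The lowest run was 46 to 48 for 33 of the 40, 49 to 51 for 6 and 52 to 54 for 1. Within silwet 2 members passed, 1.08% of them, against 1.59% of all tested, and 13 passed with the replicate block, against 4.6%. The 2 were the unnamed 263046_at, with 10.95, 9.99 and 10.99 in titles 37 to 39 and 11.22 to 11.55 in the later runs (adjusted p = 0.0450 in limma), and 247627_at, with 10.60, 10.04 and 10.55 against 10.69 to 11.45 (adjusted p = 0.0345). In both the first silwet run lay below the later ones, and neither call held with a replicate number left out (adjusted p 0.0850 to 0.371). All 13 members passing with the block were lowest in titles 37 to 39, and the named ones among them were AT1G13930, AT1G09310, AT4G16190, a protease of the papain family, and AT5G55450, of the lipid transfer family. After quantile normalization 0 members passed within silwet in limma, against 1.49% of all tested (smallest adjusted p 0.125, and 13 members at an unadjusted p under 0.05), and 37 passed within SA, against 25.1%.

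As deposited, the first run read lower than the later ones across most members in both treatments, and most of this shift was gone after quantile normalization. The median of titles 46 to 48 minus the later SA runs was -0.19, below 0 for 161 members, and that of titles 37 to 39 minus the later silwet runs was -0.21, below 0 for 164. The medians over all probe sets tested were -0.04 for SA and 0.02 for silwet, with 54.4% and 47.3% of them below 0. After quantile normalization the SA median was -0.06, below 0 for 126 of the 186 members, and the silwet median -0.01, below 0 for 101. All probe sets tested then had medians of -0.03 for SA and -0.01 for silwet, with 53.1% and 52.2% below 0. On silwet the members were thus near the background.

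**Figure D3:**
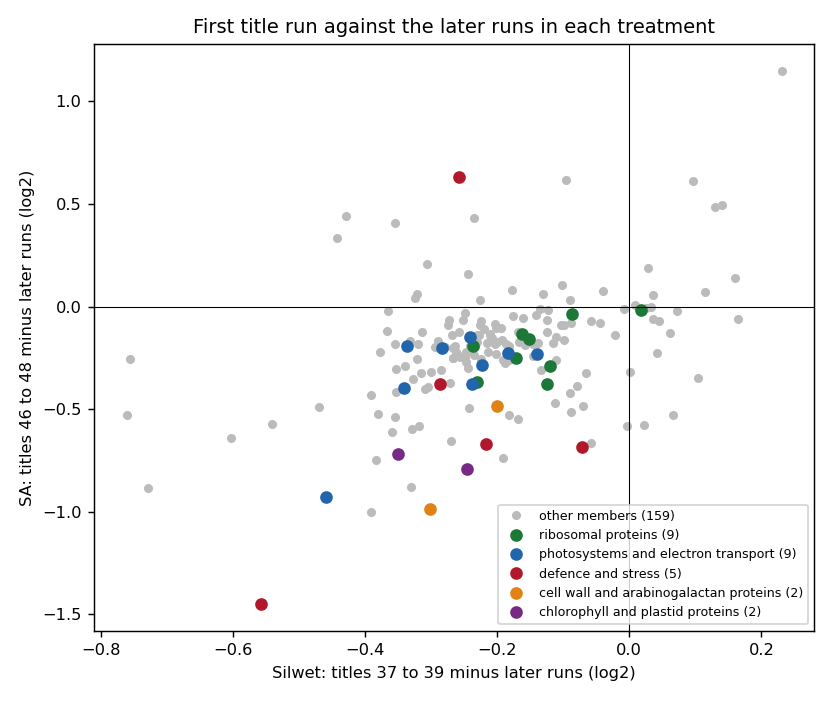
First title run minus the mean of the later runs (log2) for each of the 186 members, silwet on the horizontal and SA on the vertical axis, with named functions in colour and the number of members in brackets. Values are as deposited, and most members lie in the lower left. Ribosomal genes lie near the centre of the cloud, and photosystem genes do by their medians. AT1G51400, of photosystem II, lies well below, at -0.93 on the SA axis. AT3G62550 (defence and stress, lower left) and 266461_at (grey, upper right) lie at the ends of the cloud.

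Chlorophyll synthesis and cell wall genes were lowest in the SA arrays titled 46 to 48. In each group 2 of 2 were called, against 24.5% of all probe sets tested. PORB read 10.49, 10.09 and 10.40 on those arrays, 11.04, 11.32 and 11.09 in 49 to 51, and 10.69, 11.35 and 11.21 in 52 to 54, against 10.84 to 11.34 on silwet. Its run means spanned 0.83 (residual SD 0.20, adjusted p = 0.00119 in limma), and without replicate 2 the adjusted p was 0.128. All 3 values of titles 46 to 48 lay below every other array of the series, and the later SA runs overlapped silwet. AT1G74470, the geranylgeranyl reductase of the same pathway, read 10.31, 9.74 and 10.27 in titles 46 to 48, 10.62, 11.18 and 10.90 in 49 to 51 and 10.17, 11.01 and 11.09 in 52 to 54, with an adjusted p of 0.0213 in limma (0.504 without replicate 2 and 0.153 without replicate 3). Title 52 was among the low arrays here, so the runs overlapped.

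AT5G62350, which belongs to the inhibitors of invertases and pectin methylesterases, read 10.31, 9.99 and 10.21 in titles 46 to 48. On silwet its lowest, median and highest levels were 10.68, 10.99 and 11.17, and in the later SA runs it read 11.01 to 11.33. The first SA run stood below all other arrays, with run means of 10.17, 11.10 and 11.21 and an adjusted p of 5.94e-06 in limma, a call kept under every alternative tried. AT1G78040, of the Ole e 1 and extensin family, moved the same way over a smaller span, with 10.95, 10.77 and 10.69 in titles 46 to 48 and 11.21 to 11.43 in the later SA runs (adjusted p = 0.00191 in limma, 0.106 without replicate 2 and 0.0695 without replicate 3).

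Of the defence and stress genes 3 of 5 were called between SA runs (5 with the replicate block), in different directions. Of all probe sets tested 24.5% were called (31.3% with the block). AT3G62550, of the universal stress protein family, read 10.33, 9.52 and 8.73 in titles 46 to 48, 10.92, 10.93 and 10.86 in 49 to 51, and 11.20, 11.22 and 10.75 in 52 to 54. On silwet its lowest, median and highest levels were 9.69, 10.79 and 11.18, the lowest in title 39. The span of its SA run means, 1.53, was the largest of the called members (residual SD 0.44, adjusted p = 0.00179 in limma, 0.0916 without replicate 2). AT4G30650, of a family of small membrane proteins responsive to low temperature and salt, was likewise lowest in titles 46 to 48, with run means of 10.26, 10.84 and 11.02 (adjusted p = 0.00241 in limma, 0.12 without replicate 2).

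AT5G03350 went the other way. It codes for a protein of the legume lectin family and is known in Arabidopsis as a gene that SA induces. It read 11.62, 11.56 and 11.75 in titles 46 to 48, 10.57, 10.81 and 11.19 in 49 to 51, and 11.09, 11.01 and 11.39 in 52 to 54 (adjusted p = 0.00672 in limma, 0.0548 without replicate 1 and 0.112 without replicate 2). The first SA run stood above the other SA arrays, but silwet arrays reached 11.74 and overlapped it, and over all 9 arrays the SA mean was 0.16 below silwet (adjusted p = 0.9998 in limma). The same order of SA runs, with a larger span, was seen in the unnamed 266461_at: 11.45, 11.69 and 11.53 in titles 46 to 48, 10.10, 9.83 and 10.44 in 49 to 51, and 10.55, 10.53 and 10.99 in 52 to 54 (adjusted p = 3.97e-05 in limma). Its first SA run lay above all 9 silwet arrays, which reached 11.10, and the second run below all 9.

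Photosystem and ribosomal genes were called in these numbers. Of the 9 photosystem genes 2 differed between SA runs (5 with the replicate block, 1 after quantile normalization), and of the 9 ribosomal genes 1 (3 with the block, 0 after quantile normalization). Of all probe sets tested 24.5% differed, 31.3% with the block and 25.1% after quantile normalization. AT1G51400, of photosystem II, read 10.24, 9.29 and 10.27 in titles 46 to 48, 10.39, 10.56 and 10.88 in 49 to 51 and 11.08, 11.07 and 11.19 in 52 to 54, so the 3 SA runs did not overlap (adjusted p = 0.00107 in limma). On silwet it had 10.32, 10.79 and 11.17 as lowest, median and highest level. PSAN, of photosystem I, spanned 0.47 between SA run means (adjusted p = 0.0446 in limma, lost after quantile normalization), and AT5G27700, a small subunit ribosomal protein, 0.37 (adjusted p = 0.0270 in limma, 0.145 after quantile normalization and 0.139 to 0.164 with a replicate number left out). RCA and LHCB4.1 did not pass, with run means spanning 0.25 and 0.12. SBPASE, with run means spanning 0.56, had an adjusted p of 0.0502 in limma and passed with the replicate block (0.00501).

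The remaining called genes were mostly lowest in titles 46 to 48 as well. AT1G13930 read 11.11, 10.72 and 10.91 there and 11.51 to 11.80 in the later SA runs (adjusted p = 7.18e-05 in limma). AT2G45180, of the lipid transfer family, PRXR1, a class III peroxidase, AT4G16190, AT1G09310 and AT2G25450, the dioxygenase that hydroxylates a side chain of aliphatic glucosinolates, were called too, with run means that spanned from 0.52 in AT2G45180 upwards. The largest span was that of AT1G09310, whose run means were 10.24, 11.01 and 11.23. The calls of AT2G45180, PRXR1, AT4G16190 and AT1G09310 were lost without replicate 2 (adjusted p 0.112 to 0.363 in limma) and without replicate 3 (0.0814 to 0.132), and that of AT2G25450 without replicate 2 (0.0713). The call of PRXR1 was also lost after quantile normalization (0.0638). AT5G55450 differed in its order: its run means were 11.07, 10.52 and 10.94, so titles 49 to 51 were lowest, and each of their arrays read below each of the other SA arrays (adjusted p = 0.0160 in limma, 0.0518 to 0.255 with any replicate number left out).

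**Figure D4:**
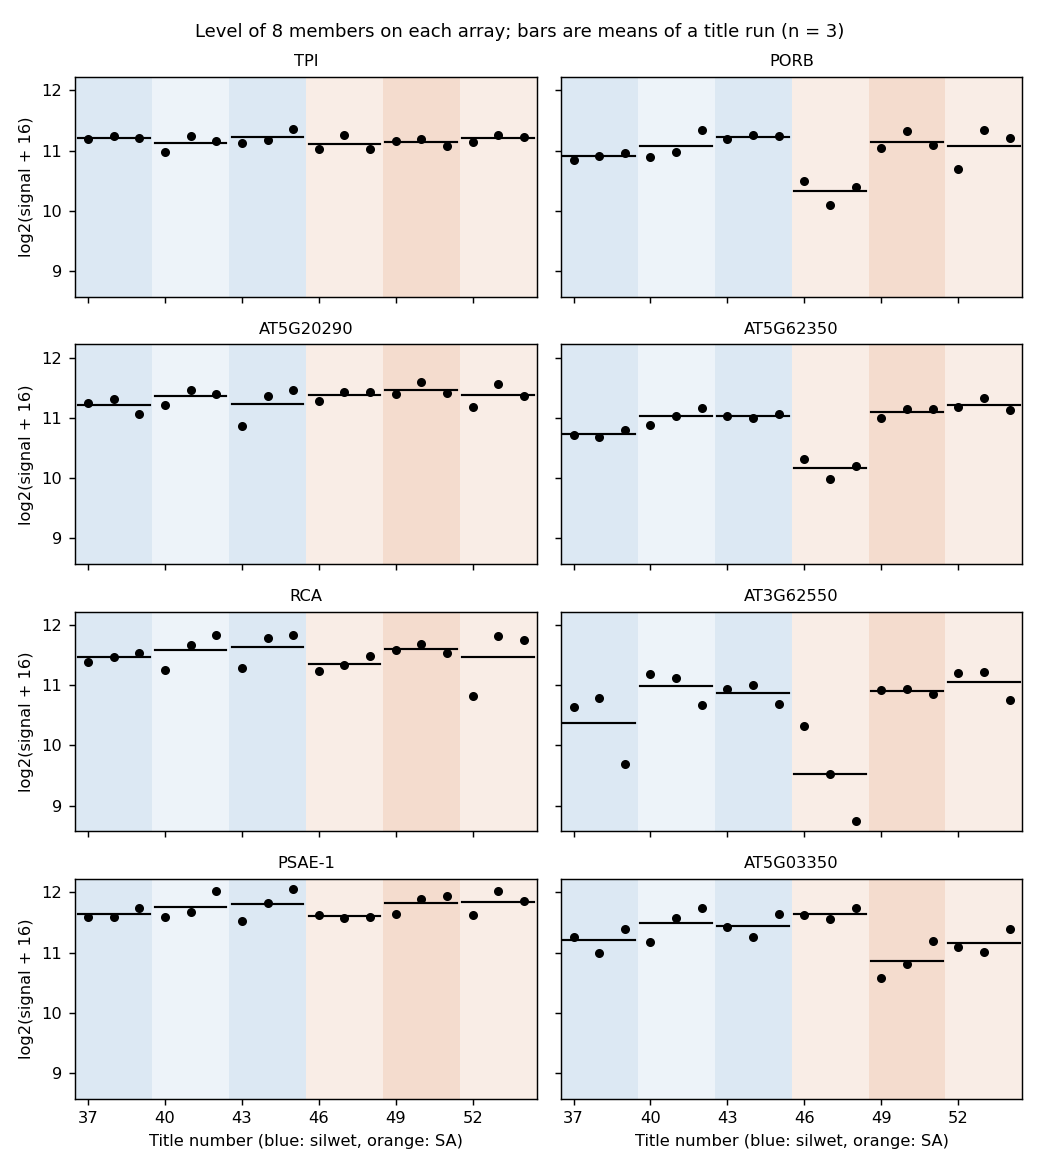
Level, log2(signal + 16), of 8 members on each of the 18 arrays in order of title number, with silwet in blue, SA in orange, shades for title runs and bars for run means (n = 3). TPI, AT5G20290, RCA and PSAE-1 on the left stay between 10.81 and 12.06, while PORB, AT5G62350 and AT3G62550 are lowest and AT5G03350 highest in titles 46 to 48.

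Each SA run was also set against all 3 silwet runs, since the labels do not say which belongs to which. The second number in the titles was not used to match them. In titles 46 to 48, 2 members read lower than every silwet run and 0 higher with adjusted p under 0.05 in limma, against 1.69% of all tested (0.692% lower and 1% higher). They were 264371_at (smallest difference -0.62, adjusted p = 0.0145), and AT5G62350 (smallest difference -0.56, adjusted p = 0.0175). 264371_at read 10.38, 10.14 and 10.29 in titles 46 to 48 and 10.82 to 11.40 on silwet. Both lost the call without replicate 2 (adjusted p 0.680 and 0.716) and without replicate 3 (0.316 and 0.361). With the replicate block 6 members passed, 1 higher and 5 lower, against 4.1% of all tested, and PORB (adjusted p = 0.0348), AT3G62550 (0.0311) and AT1G13930 (0.0444) were among them. After quantile normalization 4 passed, against 1.72%. In titles 49 to 51 and 52 to 54, 0 members passed (0% of all tested), with 3 and 0 at an unadjusted p under 0.05.

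The third comparison asked how steady the members were between replicate numbers once treatment and run were taken out. It called 28 members, 15.1% of them, in limma's F-test, against 9.9% of all probe sets tested, and 25 after quantile normalization, against 9.33%. Of the 28, replicate 1 was lowest for 17 and replicate 3 highest for 14. With a number left out 2 to 14 passed. Without titles 40, 43 and 52, which all carry number 1, 0 members passed in limma, against 1.34% of all tested, with 40 members at an unadjusted p under 0.05. Without title 52 alone 17 passed, against 6.48%, and without terms for the title runs 1 passed, against 0.627%. On those 3 arrays the members' share of summed signal was 14.24, 15.01 and 13.79%, the lowest of their runs.

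Both carbon fixation genes and 4 of the 5 defence and stress genes were called between replicate numbers, against 9.9% of all tested. After quantile normalization 0 of the 2 carbon fixation genes and 5 of the 5 defence and stress genes were called, against 9.33%. RCA had means of 11.26, 11.63 and 11.67 over the 6 arrays of replicate 1, 2 and 3, a span of 0.40 (adjusted p = 0.0364 in limma, 0.0739 without title 52 and 0.0826 after quantile normalization). Its arrays of number 1 read 11.39, 11.26 and 11.29 on silwet and 11.24, 11.59 and 10.81 on SA, and those of numbers 2 and 3 from 11.34 to 11.84, so the numbers overlapped. SBPASE had means of 10.69, 10.86 and 11.07 (adjusted p = 0.0409 in limma, 0.0801 without title 52 and 0.0671 after quantile normalization). LCR69, a plant defensin, a small cysteine-rich protein, ran the other way with means of 11.04, 10.86 and 10.40 (adjusted p = 0.0107 in limma, 0.374 without replicate 3), as did AT3G62550 with 10.87, 10.76 and 10.23 (adjusted p = 0.0231, 0.65 without replicate 3). AT4G30650 was highest in number 1 and AT5G03350 in number 3. The unnamed 267461_at had means of 11.20, 10.72 and 10.47, a span of 0.72 (adjusted p = 0.00551 in limma, 0.352 without replicate 1).

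Of the 9 ribosomal genes 2 differed between replicate numbers, against 9.9% of all tested, and both were lowest in number 1. AT3G09200, of the acidic stalk, had means of 10.86, 11.22 and 11.18 (adjusted p = 0.0188 in limma, 0.0508 without title 52), and AT1G52300 an adjusted p of 0.0328. None of the 9 photosystem genes passed. The 28 members called here and the 40 called between SA runs shared 7, which is 25% of the former and 17.5% of the latter. Of all members 21.5% were called between SA runs and 15.1% between replicate numbers, so the overlap was near those shares. Neither the overlap nor the next count was made over all probe sets tested. In all, 124 members, 24 of them with 1 gene, were called neither between runs of a treatment nor between replicate numbers. TPI, GAPC2, LHCB4.1, PSAE-1, ATPC1 and AT5G20290 were among these, which says only that no difference past the threshold was found.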

How the data were processed

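RNA of 9 silwet and 9 SA samples was read on ATH1 arrays, 1 sample per array. For each probe set the authors deposited 1 intensity on a linear scale, computed by MAS5 according to what the submitters' processing notes list, with version and settings not given in the sources used here. Since MAS5 sets the arrays to a common level, they hold no information on total RNA. Of 22810 probe sets, 64 AFFX controls were left out, and those whose mean lay under the 25th percentile were not tested, which left 17059. No further scaling was applied. Values were analysed as log2(signal + 16) with limma 3.58.1 in R 4.3.3 (moderated variances with a trend) and Benjamini-Hochberg adjustment over all 17059 probe sets at a threshold of 0.05. The models were first tested on simulated data. Python 3.11.15 with matplotlib 3.10.9 drew the figures. Precision is limited by how many arrays there are.

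SA was compared with silwet over 9 and 9 arrays. Title runs were compared by F-tests in a fit of 6 groups of 3 arrays, and replicate numbers by an F-test with these groups as terms. Each SA run was set against the 3 silwet runs, with the largest of 3 p-values adjusted and the smallest difference given. Alternatives tried were quantile normalization, other offsets (1 and 64), array weights, no variance trend, the filter dropped or set at the median, the replicate block, the title run as a random block, averaged arrays, the first runs left out, and each replicate number left out. Leaving out title 52, or titles 40, 43 and 52, was chosen after seeing the data. The members, lists, runs and tests were chosen with earlier results of these data known.

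Genes were named from the platform's annotation table, updated through the TAIR10.1 gene table: 13513 of its 14016 probe sets carry 1 gene, 13436 of these were matched, 503 carry several, and 8730 other probe sets are not named here. The tables give no descriptions, so functions were assigned by hand to listed loci after the members' names were seen. Genes named were, by function, the 4 with the highest level, the 8 with the smallest and the 8 with the largest SD, the 8 with the largest run range among those called in each treatment, the 5 called for replicate numbers with the largest range, and the 5 largest differences of each SA run in each direction. Genes outside it that are named were chosen after their values were seen: the full membership of small groups, and called members of a function. Unnamed probe sets were given where among the first 3. Promoter sequences were not used here. Silwet and SA arrays that share a replicate number varied together. Their mean deviations from the treatment means correlated at 0.757, 0.564 and 0.646 for numbers 1, 2 and 3 across probe sets. Across members the values were 0.875, 0.713 and 0.808. The fits with the replicate block took the numbers of the titles to pair the arrays. The main fits of SA against silwet and of title runs left this pairing out. Blocked counts are given where they moved by over 1.5 times.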

Additional observations from a re-analysis of the deposited data

Results flagged for a closer look

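In 5 of 110 groups of 9 arrays tested, the lowest array lay far from the others of its treatment, with a gap to the next of over 0.493 of the group's range. Chance gives this in about 1 in 20 groups that were not picked by their values. The groups here were the named probe sets and measures of the members on each array, in each treatment. Some of these probe sets were named for a large SD or range, so that rate does not hold for them. PRXR1, a peroxidase, read 10.70 on the silwet array titled 39, where the next lowest silwet array had 11.22, and without it the silwet level was 11.39 ± 0.14 (SD, n = 8). AT3G62550, of the universal stress protein family, read 9.69 on the same array against 10.64 on the next, and 10.88 ± 0.21 (SD, n = 8) without it. AT1G51400, of photosystem II, read 9.29 on the SA array titled 47 against 10.24, and 10.71 ± 0.39 (SD, n = 8) without it. The unnamed 252971_at read 7.47 on the SA array titled 52 against 9.87, and 10.77 ± 0.49 (SD, n = 8) without it. The unnamed 263046_at read 9.99 on the silwet array titled 38 against 10.95, and 11.29 ± 0.23 (SD, n = 8) without it. The cause of these low values was not tested.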

How the results depend on the processing

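In every alternative run, 0 members passed for SA against silwet and for the SA runs 49 to 51 and 52 to 54 against each silwet run. The list itself kept 175 to 180 of the 186 members with a replicate number left out and 149 to 186 under the other alternatives. Other counts moved as follows, and the causes were not tested. For runs within silwet, 2 in the main setting, the count was 1 with an offset of 1, 0 with quantile normalization, no filter or no variance trend, 10 with array weights, and 0 to 0 with a replicate number left out. For runs within SA, 40 in the main setting, it was 77 with array weights, 70 without title 52, 87 without titles 40, 43 and 52, and 6 to 62 with a replicate number left out. These are 41.4, 37.6, 46.8 and 3.23 to 33.3% of the members, against 34.3, 26.0, 28.0 and 8.31 to 23.9% of all tested, so the members' share lay below the background in the main setting and above it in several others. For replicate numbers, 28 in the main setting, it was 10 with no filter or no variance trend, 1 with no terms for the title runs, 17 without title 52, 0 without titles 40, 43 and 52, and 2 to 14 with a number left out. For SA titles 46 to 48 against each silwet run, 2 in the main setting, it was 4 with quantile normalization, 9 with array weights, 4 without titles 40, 43 and 52, and 0 to 6 with a number left out. Leaving out a number also leaves fewer arrays. With the replicate number as a block, the counts were 13 within silwet, 71 within SA and 6 for titles 46 to 48, and the block changed no call for SA against silwet. Of 35 calls of named members, 5 held under every alternative run for them. In all, 323 of 455 such values kept the call, 132 lost it and 0 turned direction. Median SDs of the members ran from 0.129 to 0.199 on silwet and from 0.171 to 0.204 on SA over the alternatives. With 9 arrays a treatment, taken as independent, half-widths of the 95% interval for SA minus silwet ran from 0.129 to 0.759 without the replicate block.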
